A study of Oncorhynchus mykiss with 43 samples.

Results

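In the fast muscle of fasted rainbow trout that were fed again, 72 cDNA clones stood below their fasted level at 36 days but not, or less so, at 4, 7 and 11 days of refeeding. In early refeeding 71 of them were within 0.3 of fasted fish on the log2 scale and 1 was above. They were chosen by their measured values. A clone was a member if its mean log2 intensity at 36 days was at least 0.4 under that of fasted fish, and if its mean at each of the earlier times was less than 0.3 under it. The rule was applied to the 1561 of 9023 clones that had a value in 5 or more fish of each group, so that the members were 4.61% of the clones tested. Another 2 clones met these limits but were left out by name. They were labelled proteasome subunit alpha type 5, part of the proteolytic core of the proteasome, and subunit 12 of the translation initiation factor eIF3. Because the rule used the means of all 5 groups, every difference between groups given here for the members is a description. No p-value is given for a member, and counts of members called stand beside the share of all tested clones with nothing read from them.

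The study examined yearling trout of a spring strain. One group was deprived of food for a month (8 fish), and the other fish were taken from the same fasted stock after refeeding at more than the normal ration. There were 9 fish at each of 4, 7 and 36 days and 8 fish at 11 days. All groups had thus been fasted, and no fish that had been fed throughout was among the samples. The methods give a different water temperature for each sampling, coldest at 36 days, so that temperature and season cannot be told apart from the days of refeeding. A slice of fast muscle from under the dorsal fin was taken from each fish, and its RNA was hybridised alone to a nylon array. Such a slice is a bulk sample, in which fewer cells of a type and less RNA per cell cannot be told apart.

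Muscle is the main protein store of a fish, and it is broken down in fasting and rebuilt on refeeding. A large part of this breakdown runs through the ubiquitin-proteasome pathway, in which ubiquitin ligases tag a protein and the 26S proteasome unfolds and cuts it. The 26S proteasome is made of a barrel-shaped core and a regulatory particle that binds, unfolds and admits the tagged protein. The COP9 signalosome is a related complex that removes the NEDD8 tag from the cullin ligases and so sets their activity. These pathways are introduced here because the only members that could be named belong to them.

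Names came from the clone labels in the study's figures, since the table of values holds clone names alone. Of the 72 members 3 carried a label and 69 did not, and no sequence of a clone was at hand. The 3 named members encode COP9 signalosome complex subunit 8, 26S protease regulatory subunit 4 and 26S proteasome non-ATPase regulatory subunit 4. What the other 69 encode is not known here, and some of them may be copies of the same transcript. Among the study's figures of gene functions, only that of protein degradation shows clones with peak expression in fasted fish. The rule does not ask for such a peak, and fasted fish had the highest mean in 50 of the 72 members. The translation initiation factor clone left out by name had log2 differences of 0.20, 0.05, 0.03 and -0.56 at 4, 7, 11 and 36 days. It would have been a named member outside this theme, while the proteasome clone left out by name would have been inside it. The shared theme of the 3 names thus rests in part on what was left out, and it says nothing of the other 69.

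The intensities are linear values that the authors corrected for the amount of cDNA on the spot and divided by the median of the array. Each array listed values for 1441 to 2616 clones. The median of the listed values still differed between arrays, from 2.04 to 3.63, and was highest on the 36-day array with 1441 values. Members were listed in 95.1% to 97.7% of the cells of a group, against 92.1% to 94.8% for all tested clones, and both shares were lowest at 36 days. As a check of the tissue, clones labelled as contractile proteins of muscle were used, though no label says fast or slow muscle. Of 7 such clones 4 had enough values. Their summed intensity ranged from 20.6 to 26.8 in fasted fish and from 20.8 to 25.5 at 4 days. It then ranged from 20.6 to 37.2 in the fish of 7 days, from 26.5 to 39.7 in those of 11 days and from 26.5 to 34.7 in those of 36 days. The median sums were higher from 7 days on (30.5 to 31.1) than in fasted fish (23.4) and at 4 days (24.5), and 1 of the 4 clones was called by limma at an adjusted p of 0.0001. This was myosin light chain 1, a part of the contractile motor, which was higher than in fasted fish at 11 days (log2 difference 0.54, SE 0.10, limma adjusted p = 7.06e-05) and at 36 days (0.66, SE 0.10, adjusted p = 1.18e-06). The study's figures show clones that it had selected on these same fish, so this rise is not independent evidence. The part of this change in the values of the members was not tested. The apolipoprotein B-100 clone, the only liver marker labelled, was listed in 16 of the 43 fish, at 0.533 to 0.895.

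For 4, 7 and 11 days the median of their log2 differences from fasted fish was -0.09, -0.15 and -0.11. The median for 36 days was -0.47, a level 27.7% lower. Over all tested clones the medians were -0.03, -0.02, 0.01 and -0.05. Most members lay slightly under the fasted mean in early refeeding, with 56, 62 and 59 of them there at 4, 7 and 11 days, against 868, 835 and 746 of the 1561 tested clones. There were 50 members below fasted fish at all 3 early times, 6 above at all 3 and 16 on both sides. The same fasted mean enters every one of these differences. A rule that asks for a low difference at 36 days thus favours early differences under 0, and nothing is read from these counts.

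**Figure D1:**
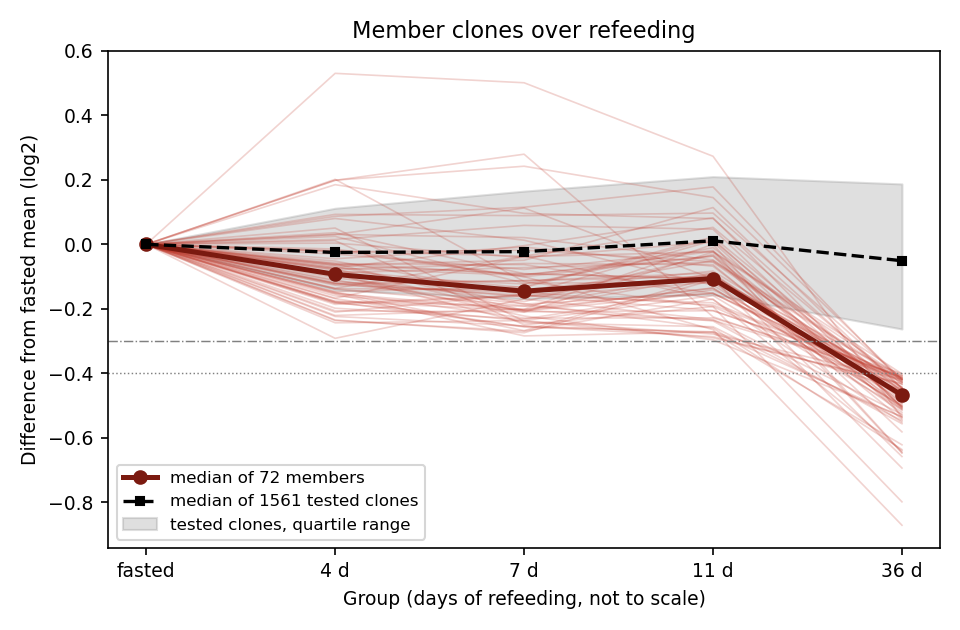
Mean log2 difference from fasted fish (y axis) in each group (x axis, days not to scale) for each of the 72 members (thin lines), their median (thick line), and the median and the range between quartiles of the 1561 tested clones (dashed line and grey band). The dotted and dash-dotted lines are the limits of the rule at -0.4 and -0.3. The member median stays between -0.15 and -0.09 until 11 days and is -0.47 at 36 days.

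At 36 days the members lay between -0.87 and -0.40. Of the 72, 9 were at or below -0.60, 20 lay above that up to -0.50 and 43 lay between -0.50 and the limit, so that the smallest differences were the commonest. The clones closest to the limit at 36 days had differences of -0.4012 and -0.4018 inside it and -0.3998 and -0.3965 outside it. At the early limit the lowest of the 3 early differences was -0.292 and -0.296 in the nearest members and -0.303 and -0.306 in the nearest clones left out. Without the limit on early refeeding, 188 clones (12% of those tested) lay at or below -0.4 at 36 days. Most of these (7.30% of the tested clones) had lain at or below -0.3 at an earlier time. The opposite pattern, at least 0.4 above fasted fish at 36 days and less than 0.3 above at each earlier time, was met by 63 clones.

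Among the members the 36-day mean was the lowest of the 5 groups in all 72, which the rule brings about, and it was so in 40% of all tested clones. The highest mean was that of fasted fish in 50 members (30.5% of all tested clones had it there), of 4 days in 9, of 7 days in 4 and of 11 days in 9. The rule favours this too, since it asks for a fasted mean above that of 36 days. Set against the earlier refed groups, the median log2 difference of 36 days was -0.41 from 4 days, -0.34 from 7 days and -0.38 from 11 days, where all tested clones had -0.08, -0.07 and -0.08. In 18 members the 36-day mean lay at least 0.4 under each of the 3 early means. In 9 it lay less than 0.2 under the lowest of them.

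Only 1 member stood clearly above fasted fish in early refeeding, by at least 0.3 on the log2 scale at 1 or more times. This unnamed clone, tcac0002.c.01, was picked out after its values had been seen. Its intensity was 1.72 to 2.45 in fasted fish (median 2.18), between 2.76 and 3.52 at 4 days (3.00) and between 2.49 and 3.72 at 7 days (3.01). It was between 1.88 and 3.11 at 11 days (2.82) and between 1.06 and 1.85 at 36 days (1.51). Every fish at 4 and 7 days thus lay above every fasted fish, while the 36-day fish reached into the fasted range. The log2 differences were 0.53 ± 0.10 (SE, as in all such pairs that follow), 0.50 ± 0.10, 0.27 ± 0.11 and -0.54 ± 0.11 at 4, 7, 11 and 36 days. These SEs come from the limma fit, which uses 1 spread per clone for all 5 groups. They do not show a wider spread at 36 days alone.

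The COP9 signalosome subunit 8 clone (tcay0005.g.21) belongs to the complex that acts on the cullin ligases. Its normalized intensity was 1.31 to 2.45 in fasted fish (median 1.84) and 1.29 to 1.82 in the 8 fish listed at 4 days (mean 1.49). It was 1.32 to 2.03 at 7 days (mean 1.63) and 1.22 to 1.90 at 11 days (mean 1.56). At 36 days only 5 of the 9 fish had a value, and these were 1.06, 1.11, 1.20, 1.29 and 1.71. The value of 1.71 belonged to fish 3 and lay in the middle of the fasted range, while the other 4 lay below its lower end. The fasted mean was 1.84 ± 0.381 (SD, n = 8) and the 36-day mean 1.27 ± 0.258 (SD, n = 5). The log2 differences were -0.29 ± 0.12, -0.17 ± 0.11, -0.23 ± 0.12 and -0.53 ± 0.13, so that this clone met the early limit narrowly at 4 days.

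The 26S protease regulatory subunit 4 clone (1RT96M10_C_G05) encodes an ATPase of the regulatory particle, one of the subunits that unfold the substrate. Its intensity was 1.20 to 2.37 in fasted fish (median 1.76), between 1.45 and 1.68 at 4 days (1.58), between 1.33 and 1.90 at 7 days (1.48) and between 1.30 and 2.01 at 11 days (1.46). At 36 days 6 fish had a value, from 1.11 to 1.46. All 6 lay below the fasted mean of 1.74 ± 0.402 (SD, n = 8), yet 4 of them lay within the range of the fasted fish. The log2 differences were -0.13 ± 0.11, -0.15 ± 0.10, -0.19 ± 0.11 and -0.41 ± 0.11.

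A second clone with the same label, tcay0027.g.06, was no member because its difference at 11 days was -0.32 ± 0.14. Its other differences were -0.14 ± 0.14 at 4 days, -0.08 ± 0.14 at 7 days and -0.55 ± 0.16 at 36 days. Both clones of this subunit had their lowest mean at 36 days, as had 40% of all tested clones. For the member the rule sets this. In the second clone the 36-day mean differed from the 11-day mean by only -0.22 ± 0.16. The study chose both on these same fish, so nothing is read from their likeness. Membership turned on 1 value near the early limit.

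The 26S proteasome non-ATPase regulatory subunit 4 clone (1RT103C24_C_B12) encodes a subunit that binds ubiquitin chains in mammals and yeast. It was listed in 5 fasted fish, at 2.72, 3.01, 3.14, 3.91 and 4.42, and in 5 fish at 4 days, at 2.61, 2.89, 2.96, 3.24 and 3.26. The 5 values at 7 days were 2.48, 2.54, 3.40, 3.44 and 3.49, and the 7 values at 11 days ran from 2.36 to 3.65. At 36 days 8 fish had a value, of which fish 3 had 1.44 and the others 2.34 to 3.04. The groups overlapped, and the log2 differences were -0.18 ± 0.16, -0.16 ± 0.16, -0.21 ± 0.15 and -0.41 ± 0.15. Without fish 3 the difference at 36 days was -0.29, which would not have met the limit, and the difference of group medians was -0.15.

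The pair of members with the lowest difference from fasted fish at 36 days were unnamed. For 1RT95H08_D_D04 the intensity was 5.17 to 7.78 in fasted fish (median 6.95), between 5.61 and 7.34 at 4 days (6.76) and between 5.72 and 7.05 at 7 days (6.31). It was between 4.39 and 7.02 at 11 days (5.75) and between 1.45 and 5.22 at 36 days (4.12). The lowest value, 1.45, was that of fish 3, and only the highest of the 8 listed at 36 days, 5.22, reached the fasted range. Its log2 differences were -0.01 ± 0.14, -0.10 ± 0.14, -0.26 ± 0.14 and -0.87 ± 0.14, the last becoming -0.68 without fish 3.

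For tcba0016.o.17 the intensity was 2.42 to 4.10 in fasted fish (median 3.43), between 3.00 and 4.49 at 4 days (3.98) and between 2.03 and 4.65 at 7 days (3.16). It was between 2.30 and 3.87 at 11 days (2.93) and between 1.49 and 2.58 at 36 days (1.84). Of the 9 fish at 36 days, 8 lay below every fasted fish. The log2 differences were 0.20 ± 0.13, -0.12 ± 0.13, -0.19 ± 0.13 and -0.80 ± 0.13, and -0.76 at 36 days without fish 3.

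**Figure D2:**
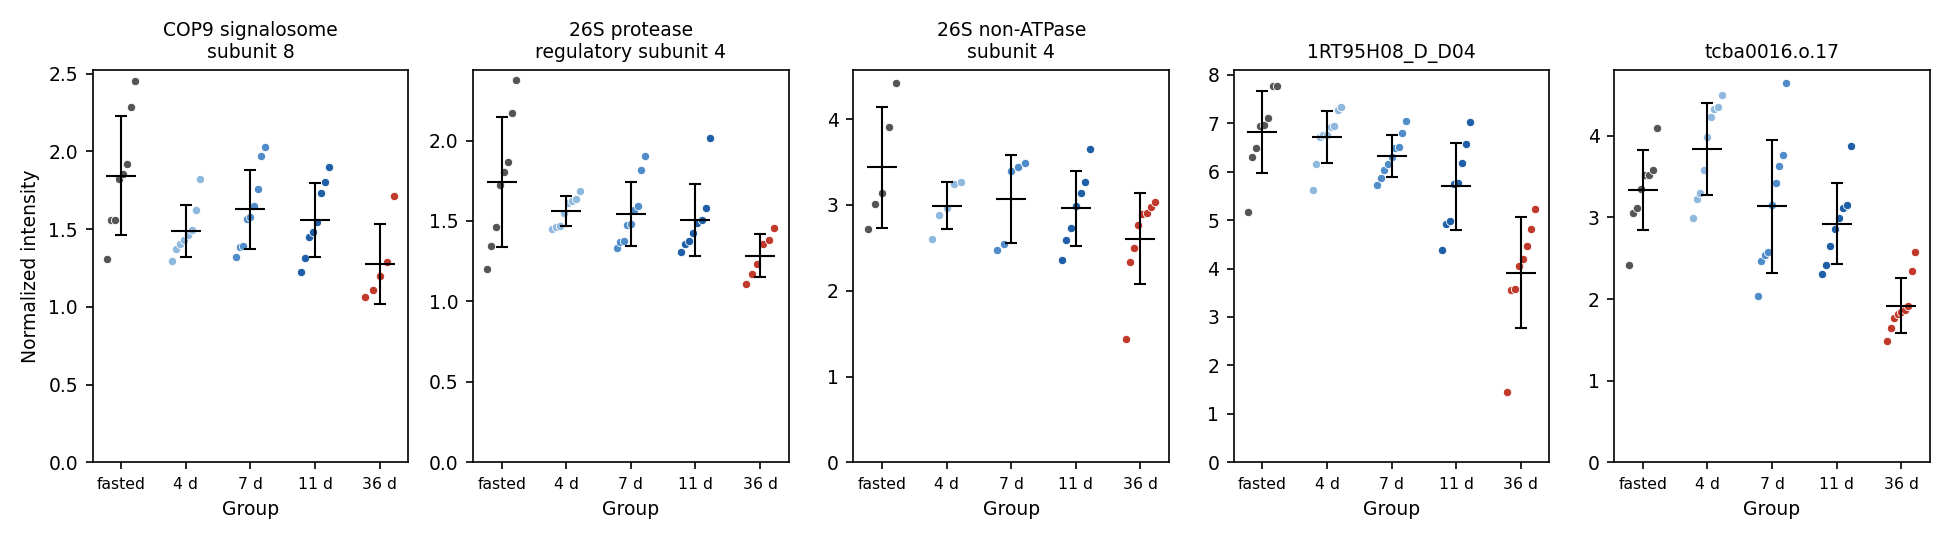
Normalized intensity (y axis, linear, from 0) in each fish (points, spread sideways in order of value) by group (x axis) for the 3 named members and the 2 members with the lowest difference at 36 days. The horizontal mark is the mean and the bar 1 SD. The 36-day points of the named members overlap the fasted points, and 1 point at 36 days lies far below the rest in the 26S non-ATPase subunit 4 panel (1.44) and the 1RT95H08_D_D04 panel (1.45).

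The labels of protein degradation name other clones of the pathway. The study chose them on the same fish for a fall after fasting, so their direction is not independent evidence. Of 44 labels 42 were found in the table, and 16 of these clones had enough values. All 16 lay below fasted fish at 36 days, with a median of -0.41 against -0.05 for all tested clones. Of the 16, 4 were called lower by limma at an adjusted p of 0.0001 (4.23% of all tested clones). At 4, 7 and 11 days their medians were -0.18, -0.22 and -0.30. The same 2 clones, ubiquitin and the Ariadne-2 protein homolog, were called lower at each of these times (0.769%, 1.09% and 1.6% of all tested clones). The 3 named members are among the 16. They were not called at 0.0001 at any time, and at an adjusted p of 0.05 they were called lower at 36 days, as were all 72 members (22.5% of all tested clones). The study had selected the clones of this figure by another method, SAM, in at least 1 comparison with fasted fish. Its false discovery rate was nominally the same as the limit of 0.0001 used here. The difference between the methods was not tested.

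The other subunits of these complexes fell on both sides of the early limit, which the rule sorts on, so that nothing is read from the split. COP9 signalosome complex subunit 7, a further part of that complex, had differences of -0.14, -0.38, -0.54 and -1.24 at 4, 7, 11 and 36 days. Among the subunits of the regulatory particle, non-ATPase subunit 12 had -0.37, -0.36, -0.30 and -0.63, and non-ATPase subunit 7 had -0.36, -0.26, -0.42 and -0.30. Proteasome subunit alpha type 5, left out by name, had -0.17, -0.29, -0.16 and -0.51. Some clones close to the members did not reach -0.4 at 36 days. Among them were proteasome activator complex subunit 2, part of a cap that opens the core, with 0.01, -0.16, -0.23 and -0.36, and the putative proteasome maturation factor ump1, which helps to assemble the core, with -0.07, -0.01, -0.02 and -0.37. Ubiquitin itself had -1.11, -0.80, -0.77 and -0.81. Differences between subunits were not tested.

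In single fish the members can be followed as 1 score, the mean over the listed members of the log2 value minus the fasted mean of that clone. The score spanned -0.17 to 0.17 in fasted fish, and in refed fish -0.15 to -0.01 (4 days), -0.26 to -0.02 (7 days) and -0.29 to -0.01 (11 days). At 36 days the 9 fish had -0.83, -0.64, -0.58, -0.49, -0.47, -0.43, -0.41, -0.37 and -0.27 (mean -0.50 ± 0.17, SD). Of these, 8 lay below every fish of the other groups. The highest, fish 7 at -0.27, lay above fish 3 of 11 days, which had -0.29. Set against the median of all tested clones in the same fish, the scores were -0.91 to -0.31 at 36 days and -0.21 to 0.08 in all other fish, with no overlap. The rule chose the members for such a gap in these same fish, so nothing is read from the separation. The share of listed members under their fasted mean was 81.7% to 100% at 36 days, which the rule raises. It was 55.7% to 83.1% at 4 days, 54.9% to 83.6% at 7 days and 44.9% to 86.1% at 11 days. In the fasted fish themselves it was 11.1% to 77.1%. This share was not computed over all tested clones, whose median difference in the single 36-day fish was -0.11 to 0.08.

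**Figure D3:**
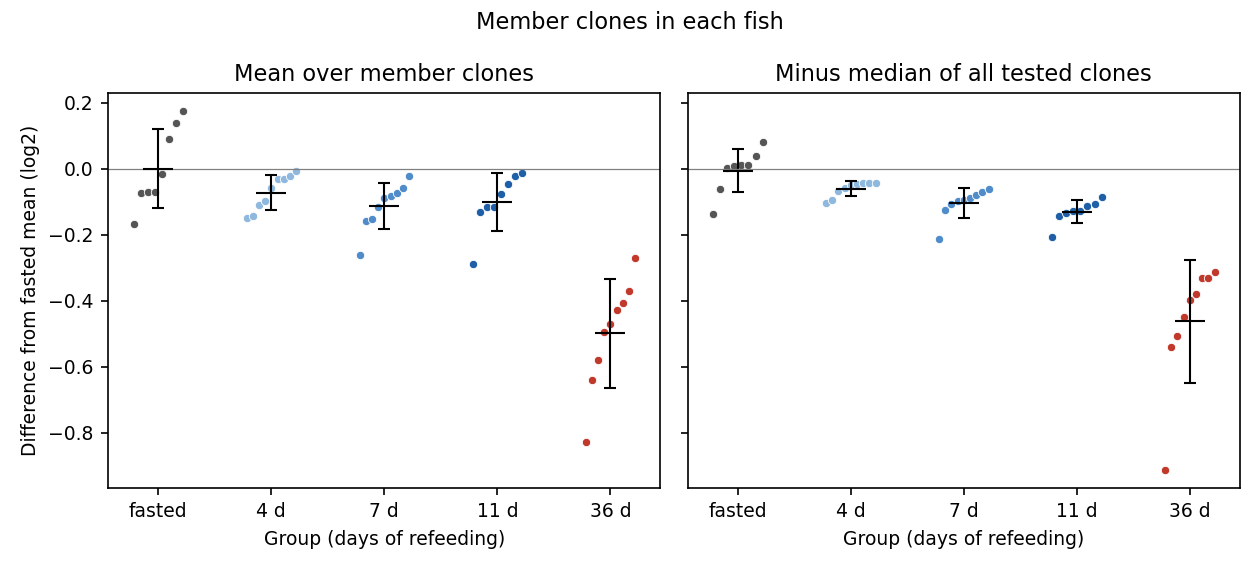
Score of the members in each fish (points) by group (x axis) on the log2 scale (y axis), as measured (left) and minus the median of all tested clones in that fish (right). The horizontal mark is the mean and the bar 1 SD. The 36-day fish lie from -0.83 to -0.27 on the left and from -0.91 to -0.31 on the right, with fish 3 lowest in both.

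In the single fish of 36 days, 39.4% to 90.9% of the listed members lay below all fasted fish, against 13.5% to 27.8% of all tested clones listed in them. For the earlier fish the shares were 0% to 18.8% of members and 4.53% to 20.8% of tested clones at 4 days, 5.63% to 41.8% and 8.10% to 28.2% at 7 days, and 2.78% to 43.1% and 6.53% to 22.1% at 11 days. All listed 36-day fish lay below the fasted mean in 44 members, and in 16.3% of all tested clones. The choice of members for low means at 36 days raises both of their values. Complete separation was rarer. In 4 members, all unnamed, every listed 36-day fish lay below every listed fasted fish, as in 42 of the 1561 tested clones (2.69%). Only 5 and 7 of the 9 fish at 36 days had a value in 2 of the 4. The number separated from 4, 7 and 11 days was 7, 5 and 2 members, where all tested clones had 2.63%, 1.92% and 1.28%.

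The comparison across all tested clones by limma gives the scale of these differences, and since the rule used the same means nothing is read from the members' share. At an adjusted p of 0.0001, 66 clones (4.23%) were lower and 84 (5.38%) higher at 36 days than in fasted fish, and 13 of the lower ones were members. After quantile normalization, which moved the median difference of all tested clones from -0.05 to -0.17, the calls were 36 lower and 20 higher. Among clones called lower at 4, 7 and 11 days (0.769%, 1.09% and 1.6%) there were 0 members. At an adjusted p of 0.05, 72 members were among the lower clones at 36 days (22.5% of all tested) and 0, 2 and 4 at the early times (4.04%, 7.56% and 10.1%). At that limit tcac0002.c.01 was the only member among the higher clones of 4 days (7.43% of all tested) and of 7 days (12.4%). Against 4, 7 and 11 days, 36 days was called lower in 6, 6 and 1 members at 0.0001, where all tested clones had 2.31%, 1.86% and 0.833%.

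Fish 3 of 36 days stood apart from the other 8. Its score of -0.83 was the lowest, and the SD of the member differences within it was 0.53, against 0.19 to 0.33 in the other 36-day fish. It was listed for 66 members, and in 46 of these it lay below the mean of the other 36-day fish, in 34 below all of them, and in 10 by at least 1 on the log2 scale. The median of this deviation was -0.37 over the members and 0.18 over all tested clones, of which 19.7% lay below all the other 36-day fish. The rule used the values of this fish, so clones low in it were more likely to be members. Part of this contrast is therefore brought about by the choice. The deep values concentrated in bright clones. Of the 39 members listed in it whose fasted level was 6.13 or more, the upper quartile of all tested clones, 10 lay at least 1 lower, and of the 27 dimmer ones 0 did. Such values were not confined to the members, though the share among bright clones was smaller over all tested clones. Over all tested clones listed in this fish, 36 of 374 with a fasted level of 6.13 or more (9.63%) lay at least 1 lower. Of those with a level under 2.99, 5 of 699 did (0.715%). Clones between these levels are left out here, while the 27 dimmer members hold all those under 6.13. When arrays were weighted, the array of this fish had the lowest weight of the 43 (0.252). The COP9 signalosome subunit 8 clone was higher in this fish than in the other 36-day fish, as given above.

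Leaving that fish out brought the mean score at 36 days to -0.46 ± 0.12 (SD, n = 8). Of the 72 members 70 still had enough values (COP9 signalosome subunit 8 did not, with 4 fish left at 36 days), all of them below fasted fish at 36 days, with a mean difference of -0.45 against -0.49 with the fish. In 49 of the 70 the difference was still at or below -0.4, and in 3 it was above -0.3. Applied without this fish, the rule gave 57 clones, 49 of them members.

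**Figure D4:**
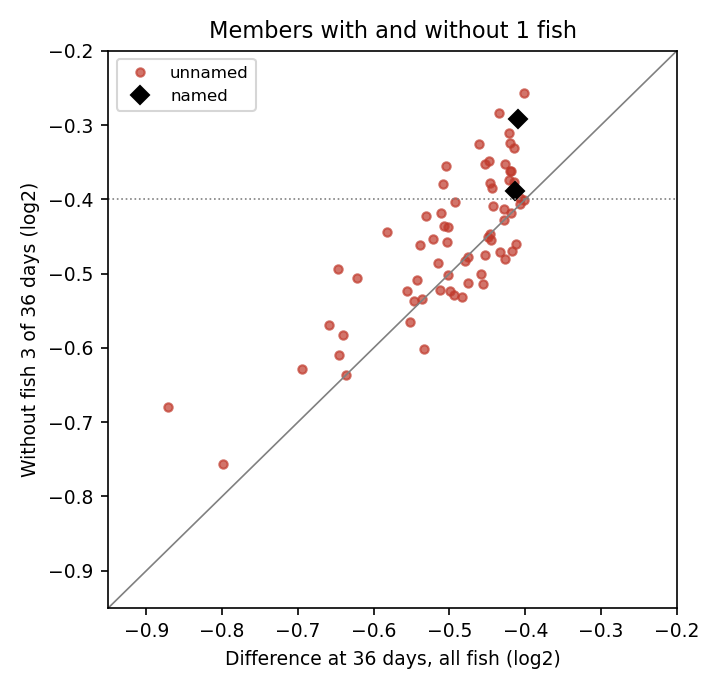
Log2 difference of 36 days from fasted fish with all fish (x axis) and without fish 3 of 36 days (y axis) for the 70 members that could be computed both ways. Points above the grey diagonal became smaller without the fish, and points above the dotted line at -0.4 would not have met the limit. The named pair shown as diamonds are the 26S protease regulatory subunit 4 (-0.41 and -0.39) and the 26S non-ATPase subunit 4 (-0.41 and -0.29).

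The members tended to be bright, which the rule did not set as a limit. The median of their geometric mean level in fasted fish was 7.74 (quartiles 3.19 and 12.3) against 2.99 (1.72 and 6.13) for all tested clones. At fasted levels of 6.13 or more 40 of 391 clones were members (10.2%), and at levels under 2.99 15 of 780 (1.92%). Clones at or below -0.4 at 36 days, whatever their early values, were also more frequent among the bright clones (18.4%) than among the dim ones (7.82%), and the median difference of all clones was -0.13 in the first and -0.01 in the second. The fasted level enters both the brightness and the difference, so these shares are given with no test. There were 32 members under 6.13, and the 3 named members, at 1.70, 1.81 and 3.38, were dimmer than most.

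**Figure D5:**
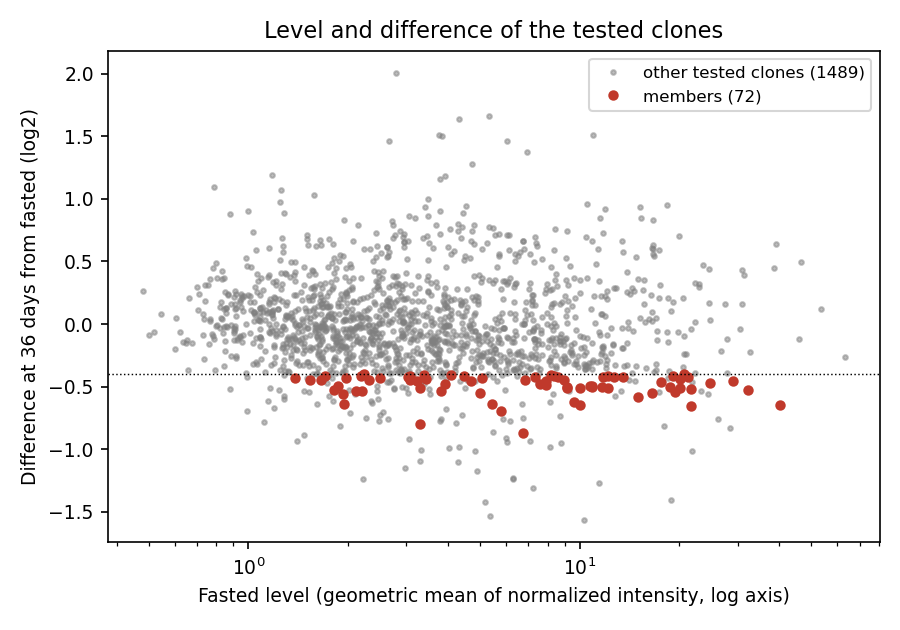
Log2 difference of 36 days from fasted fish (y axis) against the fasted level (x axis, geometric mean of normalized intensity, log axis) for the 72 members (large points) and the 1489 other tested clones (small points). The dotted line is the limit at -0.4. Members lie between 1.38 and 40.4 on the x axis, with a median of 7.74 against 2.99 for all tested clones. Other clones below the line had an early difference past the limit or were left out by name.

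The spread among fish of one group was similar in both sets, with a median residual SD of 0.24 on the log2 scale for the members and 0.23 for all tested clones. Within groups, the median SD of the members was lowest at 4 days (0.17, all tested 0.18) and highest at 36 days (0.29, all tested 0.24). The 40 members with a value on every array tended to move together from fish to fish inside a group. Their deviations from the group means had a mean pairwise correlation of 0.22 across the 43 fish, and 73.5% of the pairs were above 0. For the 697 tested clones of that kind the mean was 0.11 and the share 64.5%. Clones lower both at 36 days and earlier had 0.18 and 70.5%, and clones higher only at 36 days 0.53 and 96.1%, so that this was not particular to the members. The clones of a fish share its array, and brightness differs between the sets. By clone library, 41 members (56.9%) carried names beginning 1RT, as did 48.2% of the tested clones, 51.8% of the clones lower both at 36 days and earlier, and 11.1% of the clones higher only at 36 days.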

How the data were processed

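The authors hybridised 33P-labelled cDNA of each of 43 fish to its own nylon array, quantified the spots with BZScan (version not given in the sources used here), excluded spots whose vector oligonucleotide signal was under a multiple of the background, and divided by that signal and then by the array median. The deposited values are these normalized intensities on a linear scale. From the 9216 rows 193 controls were left out, and empty cells (285556) and zeros (10107) were taken as missing. Arrays have no read depth, and the number of arrays limits the precision.

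The 1561 clones listed in 5 or more fish of every group were tested. Their log2 values were fitted with limma 3.58.1 under R 4.3.3, a mean for each group being the only term, and p was adjusted by Benjamini and Hochberg over these clones. The calling was tested on simulated data. Python 3.11.15 with pandas 2.3.3 and matplotlib 3.10.9 was used for the rest.

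Members and the list of protein degradation clones were chosen with earlier results of these data known. Clones named were those labelled in the study's figures, read from the pictures, and the 2 lowest members at 36 days. The labels of muscle and liver proteins served as a tissue check. Alternatives were other normalizations, minima of fish, limits, thresholds, weights, a block, a covariate and leaving out fish. Sequences, coordinates and Q-PCR values were not analysed here.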

Additional observations from a re-analysis of the deposited data

Results flagged for a closer look

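For the member scores, the 3 named members and the 2 lowest members, 35 groups of 5 to 9 listed fish were searched for a value far from the others of its group, by the gap to its neighbour over the range of the group, and 6 were found. Among independent groups of normally distributed values, chance alone would pick about 1 in 20. The groups here share fish and clones, and the rule used their values, so the 6 are not set against that rate. Of the 6, 3 concerned fish 3 of 36 days. Its score minus the median of all tested clones was -0.913, with the next fish at -0.539. In the same fish the 26S proteasome non-ATPase regulatory subunit 4 clone had an intensity of 1.442, next to 2.34, and 1RT95H08_D_D04 had 1.453, next to 3.55. The other 3 were single values. Fish 3 of 11 days had a score of -0.289, next to -0.131. Fish 2 of 7 days had a score minus the all-clone median of -0.214, next to -0.124. Fish 7 of 11 days had an intensity of 2.013 for the 26S protease regulatory subunit 4 clone, next to 1.58.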

How the results depend on the processing

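The mean member difference at 36 days (-0.49) stayed below 0 in all 7 other settings tried (-0.63 to -0.47) and without each fish in turn (-0.52 to -0.45). The 5 single clones given also stayed below 0 in the 6 or 7 settings run for each, and without fish 3 of 36 days in the 4 that could be computed. All these clones were held fixed and had been chosen for low values at 36 days in the same fish. A sign below 0 was thus all but set by the rule, and nothing is read from it. The number of clones meeting the rule varied. It was 213 after quantile normalization (71 of the 72 members among them), 29 with a limit of -0.5 at 36 days and 42 with a limit of -0.2 in early refeeding, and within 1.5 times of 72 in 9 settings. When clones had to be listed on every array, it was 40 of the 697 such clones, all of them members. Without each fish in turn it was 57 to 92, with 49 to 72 members kept, and 23 members were kept in every case. The lowest number came without fish 3 of 36 days and the highest without fish 7. None of the 3 named members was among the 23. Of the 43 cases, COP9 signalosome subunit 8 was kept in 33 and 26S protease regulatory subunit 4 in 38. The 26S non-ATPase subunit 4 clone was kept in 26, the fewest of any member. Group medians in place of means kept 43 members among 69 clones.

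Quantile normalization moved the median difference of all tested clones to -0.17, and relative to that median the members' mean was -0.45, against -0.44 before. Without single fish the median was -0.07 to -0.03. All clones called at 36 days (150) became 56 after quantile normalization, 76 of the 697 listed on every array, 580 at an adjusted p of 0.05 and 127 without fish 3 of 36 days. Called members (13 of 72) became 5 of 72, 6 of 40, 72 of 72 and 11 of 70 in these settings. The counts of all clones hold both directions. The lower calls alone were 66 of 1561 as reported. They were 36 of 1561, 28 of 697, 352 of 1561 and 58 of 1523 in these settings, in the same order. Calls of members at 4, 7 and 11 days, summed over the 3 times (0), became 2 with array weights, 8 at an adjusted p of 0.05 and 1 without fish 3 of 36 days. Apart from 6 lower calls among the 8, they were of tcac0002.c.01, which was higher. The shares of all tested clones called early with array weights or without fish 3 of 36 days were not computed. Members with no overlap (4) became 0 after quantile normalization, 9 after centring each array on the clones listed on every array, 8 without the 5 arrays with the fewest values, and 4 to 8 without single fish (7 without fasted fish 4 or 8, 8 without fish 7 and 7 without fish 9 of 36 days). Leaving fish out can only keep or raise this count, and only fasted and 36-day fish enter it. The share of all tested clones with no overlap was computed only as reported (2.69%), so nothing is read from these counts. Causes of the other changes were not tested.

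Fish of different groups share replicate numbers, but the labels do not say that these pair them. Deviations correlated with a median r of -0.01 over 82 same-numbered pairs and 0.00 over 657 others. With the replicate number as a block the rule gave 75 clones, 64 of them members, with a mean member difference of -0.50, 128 clones and 11 members were called at 36 days, and 1 member (again tcac0002.c.01) in early refeeding. The share of all tested clones called early in that fit was not computed.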
